A study of Homo sapiens with 12 samples.

Results

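The aldo-keto reductases described here are the AKR1B and AKR1C members AKR1C1, AKR1C2, AKR1C3, AKR1B1 and AKR1B10. They were taken as every probe set whose only gene symbol in the platform's probe annotation was one of these 5 names. That gave 7 probe sets of 4 genes, out of 11963 genes with such a probe set on the array. AKR1C1 had 3 probe sets, AKR1C2 had 2, AKR1C3 and AKR1B10 had 1 each, and AKR1B1 was not analysed here because no probe set carried its name alone. No probe set with several symbols named a member. The genes were chosen by family with values of these same arrays in view, among them the Detroit differences of AKR1C3 and AKR1B10, so levels and differences of the members are given as a description. Where counts of members that passed a test are given, nothing is read from them.

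Aldo-keto reductases are cytosolic enzymes that use NADPH to reduce aldehydes and ketones to alcohols. The AKR1C enzymes act on steroids, prostaglandins and products of lipid peroxidation, and the AKR1B enzymes on aldehydes, glucose and retinal. Several of the genes are classical targets of NRF2, the transcription factor that answers oxidative and electrophilic stress, and they are often abundant in squamous tumours with an active NRF2 pathway. In the RefSeq gene table AKR1C1, AKR1C2 and AKR1C3 are consecutive coding genes on chromosome 10, and AKR1B1 and AKR1B10 are consecutive on chromosome 7.

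The study measured total RNA of 3 head and neck cancer cell lines, labelled HNC-Detroit, HNC-Fadu and HNC-OECM1, on 12 Affymetrix arrays. FaDu derives from a squamous carcinoma of the hypopharynx and OECM1 from an oral squamous carcinoma, and the labels do not say which Detroit line was used. Each line was present as parent cells and as an invasion subline, a population selected for strong invasion in a Matrigel assay. The 6 groups had 2 arrays each. No drug, transgene or further agent is named for any group, the protocol entry on Matrigel is the same for parents and sublines, and whether duplicates were separate cultures is not stated, so their spread may be technical.

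The promoters are shown to compare the AKR1C genes upstream of their starts. They are not part of the transcripts that the probes bind, whose identity was not computed here. The RefSeq promoter table (GRCh38.p14) matched 3 of the 4 measured genes, with 1 start site for AKR1C1 and AKR1C2 and 2 for AKR1C3. The 150 bases before each start are given 5′ to 3′ on the gene's strand, and capitals mark a CCAAT box, here in its reverse form. They lie at chr10:4963265-4963414 (+) for AKR1C1, chr10:5003858-5004007 (-) for AKR1C2, chr10:5048631-5048780 (+) for the upstream start of AKR1C3 and chr10:5094264-5094413 (+) for its downstream start.
AKR1C1: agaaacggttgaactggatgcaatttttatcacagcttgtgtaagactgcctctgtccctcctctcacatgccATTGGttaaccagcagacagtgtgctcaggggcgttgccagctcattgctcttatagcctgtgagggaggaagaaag
AKR1C2: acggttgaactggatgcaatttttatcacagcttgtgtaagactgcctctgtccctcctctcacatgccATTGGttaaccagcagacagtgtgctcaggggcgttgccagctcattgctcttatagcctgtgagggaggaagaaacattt
AKR1C3 upstream start: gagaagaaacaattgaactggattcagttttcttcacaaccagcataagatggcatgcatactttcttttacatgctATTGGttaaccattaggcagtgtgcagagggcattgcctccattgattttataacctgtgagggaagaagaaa
AKR1C3 downstream start: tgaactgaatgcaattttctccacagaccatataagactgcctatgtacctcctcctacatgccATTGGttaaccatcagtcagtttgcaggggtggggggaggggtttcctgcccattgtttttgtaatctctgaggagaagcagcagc

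Over the 250 bases before the start, AKR1C1 and AKR1C2 aligned with 245 identical bases, 1 mismatch and 8 gap positions, an identity of 96.5%. AKR1C3 was less like them, at 72.4% and 70.6% from its upstream start and 69.9% and 70.9% from its downstream start. The CCAAT box (CCAAT, or ATTGG on the other strand) begins 77 bases before the start in AKR1C1, 81 in AKR1C2, and 73 and 86 at the AKR1C3 starts. These letters were looked for after the promoters had been read, and 23.5% of the 35116 promoters in the table hold them in the same 150 bases. The core of the antioxidant response element to which NRF2 binds, TGACNNNGC on either strand, was in 0 of the 4 windows of 300 bases, against 13.3% of all promoters, and its form TGACTCAGC was in 0 of 4 against 0.561%. That says only that these letters are not in these windows.

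The arrays labelled Detroit invasion subline need care throughout. Over 15124 probe sets their mean was closer to the Fadu parent (root mean square log2 difference 0.44) than to the Detroit parent (0.75), whereas Fadu and OECM1 sublines lay 0.34 and 0.38 from their own parents. Their duplicates differed by 0.87, against 0.43 to 0.74 in the other groups. The ACTB control signal at the 3 prime end minus that at the 5 prime end, a measure of shortened RNA, ranged from -0.28 to 0.87 on the log2 scale over the 12 arrays. All 5 general epithelial markers (CDH1, EPCAM, KRT8, KRT18 and KRT19) lay above the dim limit on every array, as did 3 of 5 squamous markers (KRT5, SFN and PERP). The dim limit is a log2 value of 4.52, under which 40% of all measured values lie. Of 7 fibroblast, 5 endothelial and 5 leukocyte markers, 5, 1 and 3 lay above it on some array, COL1A1 and CD3D on every array, and array means of these lists stayed between 3.80 and 5.03. The squamous list averaged 7.53 in the Detroit parent and 9.72 in the Detroit-labelled subline, and the fibroblast list 4.82 and 4.38. The part of either list in the Detroit differences was not tested. Values below are log2 RMA values, and since RMA compresses low signals, folds against dim groups are understated.

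AKR1C1 and AKR1C2 were highest in the Detroit parent, were next highest among the parents in Fadu and lowest in OECM1, and differed from the parent in opposite directions in the Fadu and OECM1 sublines. AKR1C1 reduces progesterone to a less active steroid. Its brightest probe set, 204151_x_at, read 11.04 and 10.26 in Detroit parent cells, 7.45 and 7.39 in those of Fadu and 6.36 and 6.24 in those of OECM1. In the sublines it read 5.43 and 5.49 for Fadu and 7.64 and 7.88 for OECM1. The Fadu subline was thus the lowest group, and neither Fadu nor OECM1 subline arrays overlapped their parent arrays. The arrays labelled Detroit invasion subline read 5.80 and 9.29, both under the Detroit parent but on either side of the Fadu parent. By group mean the order was Detroit parent (10.65 ± 0.554, SD, n = 2), OECM1 subline (7.76 ± 0.169), Detroit-labelled subline (7.55 ± 2.47), Fadu parent (7.42 ± 0.042), OECM1 parent (6.30 ± 0.087) and Fadu subline (5.46 ± 0.047). The Detroit-labelled subline could not be placed in that order, since its SD spans every group between the Fadu subline and the OECM1 subline.

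**Figure D1:**
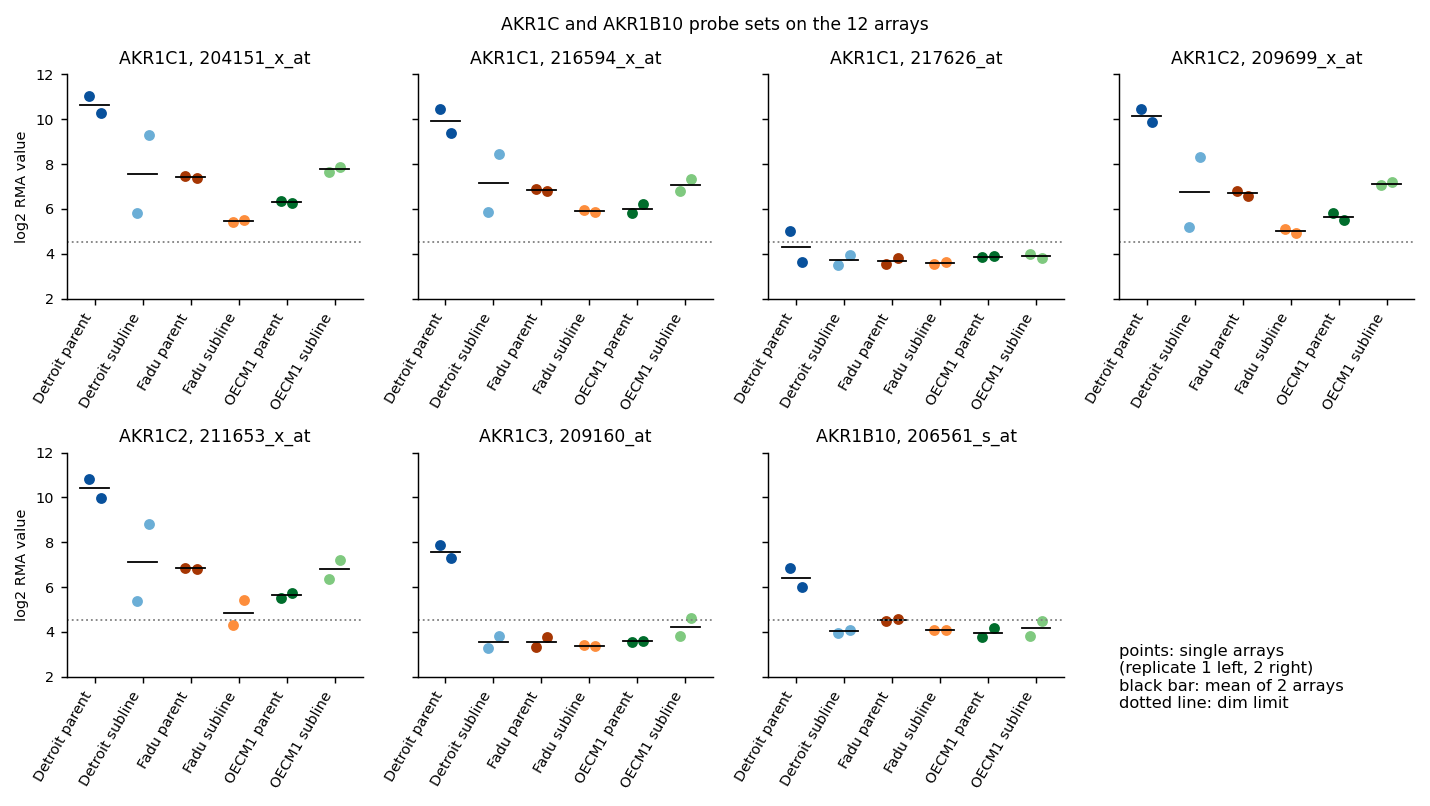
Log2 RMA value (y axis) of each of the 7 probe sets in the 6 groups (x axis). Points are single arrays, black bars are means of 2 arrays and the dotted line is the dim limit of 4.52. The 4 probe sets of AKR1C1 and AKR1C2 ending in _x_at share a pattern with an OECM1 subline above its parent and a Fadu subline below it, while AKR1C3 and AKR1B10 stand clearly above the limit only in the Detroit parent.

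The other bright probe set of AKR1C1 and both probe sets of AKR1C2 gave the same order of parents. AKR1C1 probe set 216594_x_at read 10.45 and 9.40 in Detroit parent cells, 6.88 and 6.78 in those of Fadu and 5.81 and 6.22 in those of OECM1. It read 5.88 and 8.46 in the Detroit-labelled subline, 5.96 and 5.84 in the Fadu subline and 6.79 and 7.32 in the OECM1 subline. AKR1C2, which inactivates dihydrotestosterone, read 10.46 and 9.87, 6.81 and 6.59, and 5.82 and 5.49 in the Detroit, Fadu and OECM1 parents with probe set 209699_x_at. The sublines in that order read 5.21 and 8.30, 5.09 and 4.92, and 7.06 and 7.18, so the Fadu subline lay lowest and the OECM1 subline stood above its parent on both arrays. Probe set 211653_x_at of AKR1C2 read 10.83 and 9.98, 6.86 and 6.81, and 5.50 and 5.76 in the same parents, and 5.40 and 8.83, 4.30 and 5.43, and 6.36 and 7.23 in the sublines. Fadu subline replicate 1 was its only value under the dim limit. In this probe set the Detroit-labelled, Fadu parent and OECM1 subline means (7.11 ± 2.43, 6.84 ± 0.037 and 6.79 ± 0.616) do not differ beyond their spread.

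AKR1C1 probe set 217626_at was dim. It lay between 3.51 and 5.03, with a median of 3.81 and a single array above the limit, Detroit parent replicate 1. It was not tested, and it shows none of the differences seen with the other AKR1C1 probe sets in Fadu (log2 difference -0.10) or OECM1 (0.03).

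AKR1C3 and AKR1B10 were high in the Detroit parent and near the floor elsewhere. AKR1C3 makes testosterone and prostaglandin F from their ketone precursors. Its probe set 209160_at read 7.87 and 7.29 in Detroit parent cells and 3.30 and 3.81 in the Detroit-labelled subline. It read 3.33 and 3.79 in Fadu parent cells, 3.41 and 3.36 in their subline, 3.57 and 3.61 in the OECM1 parent and 3.82 and 4.62 in the OECM1 subline. OECM1 subline replicate 2 was thus the only array outside the Detroit parent above the dim limit. AKR1B10, which reduces retinal and dietary or lipid aldehydes, read 6.84 and 6.01 in Detroit parent cells. It read 3.96 and 4.11 in the Detroit-labelled subline, 4.50 and 4.56 in Fadu parent cells, 4.10 and 4.08 in the Fadu subline, 3.77 and 4.17 in the OECM1 parent and 3.82 and 4.50 in the OECM1 subline. Only Fadu parent replicate 2 joined the Detroit parent above the limit. Both genes passed the filter on dim probe sets through the Detroit parent, so a difference from that group followed from passing it. For AKR1C3 the means of the groups other than the Detroit parent ran from 3.39 ± 0.037 in the Fadu subline to 4.22 ± 0.565 in the OECM1 subline. Those of the 2 other parents and the Detroit-labelled subline (3.56 ± 0.324, 3.59 ± 0.029 and 3.55 ± 0.363) do not differ beyond their spread.

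Parent cells of the 3 lines held the members at different levels, with Detroit highest for each tested probe set. The Detroit parent exceeded the Fadu parent by 3.23 (SE 0.82) on the log2 scale for AKR1C1 with 204151_x_at, by 3.47 (SE 0.733) for AKR1C2 with 209699_x_at, by 4.03 (SE 0.322) for AKR1C3 and by 1.89 (SE 0.314) for AKR1B10. Against the OECM1 parent AKR1C1 was higher by 4.35, AKR1C2 by 4.51 and AKR1B10 by 2.45, with the same SEs, and AKR1C3 was 16.0-fold higher. The Fadu parent exceeded the OECM1 parent by 1.12 for AKR1C1 and 1.04 for AKR1C2, while AKR1C3 differed by -0.03 and AKR1B10 by 0.56. The limma F test over the 3 parents called 6 of the 6 tested member probe sets, against 4.77% of all probe sets tested, a count from which nothing is read because the members were chosen with these values known.

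In the Detroit comparison every tested member was lower in the arrays labelled invasion subline, but by amounts that depended on the array for AKR1C1 and AKR1C2. AKR1C3 was 16.3-fold lower (log2 difference -4.03, SE 0.322) and AKR1B10 5.24-fold lower (-2.39, SE 0.314). The 2 bright probe sets of AKR1C1 gave log2 differences of -3.10 (SE 0.82) and -2.76 (SE 0.674), and those of AKR1C2 gave -3.41 (SE 0.733) and -3.29 (SE 0.863). Without Detroit invasion subline replicate 1 the AKR1C1 difference with 204151_x_at was -1.36 and the AKR1C2 difference with 209699_x_at -1.86, and without replicate 2 they were -4.85 and -4.96. The AKR1C3 difference stayed between -4.32 and -3.74 when any single array was left out, and that of AKR1B10 between -2.81 and -1.97. In 6 of the 6 tested member probe sets both subline arrays lay below both parent arrays, against 18.8% of all probe sets. Limma called 3 of the 6 lower, against 3.02% of all probe sets called in either direction. The members' count depended on the setting, being 6 with the ACTB difference as a covariate or with crossed replicate numbers, 4 with the stricter filter, 2 with the replicate block and 1 with only the arrays compared. It was 6 without replicate 2 of the Detroit-labelled subline, 3 without its replicate 1 and 2 without any one of the other 10 arrays. As the rule for the members drew on this comparison, nothing is read from these counts.

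Set against the Fadu parent, which the arrays labelled Detroit invasion subline resembled, the members lay close on average. The log2 differences were 0.13 and 0.34 for AKR1C1, 0.06 and 0.28 for AKR1C2, -0.00 for AKR1C3 and -0.49 for AKR1B10. The AKR1C1 and AKR1C2 means hide opposite arrays, since with 204151_x_at the difference was 1.87 without replicate 1 and -1.62 without replicate 2. For AKR1B10 both subline arrays (3.96 and 4.11) lay below both Fadu parent arrays (4.50 and 4.56), near the dim limit. Limma called 0 of the 6 tested member probe sets and 0.0% of all probe sets here, with 558 probe sets at an unadjusted p under 0.05. The spread behind these calls carries the gap between the Detroit-labelled duplicates, so they cannot show that the 2 groups are alike.

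The Detroit-labelled subline duplicates differed for AKR1C1 and AKR1C2. AKR1C3 and AKR1B10 lay under the dim limit in both duplicates, so their small gaps cannot show that they differed less. Replicate 2 exceeded replicate 1 by 3.49 and 2.58 for AKR1C1 and by 3.09 and 3.43 for AKR1C2, but by 0.51 for AKR1C3 and 0.15 for AKR1B10. In the other groups none of the 6 tested member probe sets differed between duplicates by more than 1.13. Several NRF2 target genes were also higher in that array. HMOX1, the inducible heme oxygenase, read 5.12 in replicate 1 and 10.69 in replicate 2. SLC7A11, the cystine transporter, read 5.28 and 9.89, GCLC and GCLM, the subunits of the enzyme that starts glutathione synthesis, 6.76 and 10.04 and 7.77 and 10.03, and TXNRD1, thioredoxin reductase, 9.95 and 11.33. NFE2L2, which encodes NRF2, read 6.10 and 8.14. Of 25 NRF2 targets 13 were higher in replicate 2, 11 of them by more than 1 log2 unit. The other 12 were lower, none by as much as 1 unit, with the largest gap at -0.96 for TKT. Among these 12 were NQO1 (10.74 and 10.39) and ALDH3A1 (7.22 and 6.73). The median gap over the 25 was 0.09. Over all probe sets 10.2% were more than 1 unit higher, with a median of -0.09. The ACTB control difference was -0.28 in replicate 1 and 0.80 in replicate 2. With it as a covariate the Detroit difference of AKR1C1 with 204151_x_at was -3.55 in place of -3.10. These are single arrays of the same label, and no test was made.

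In the Fadu comparison AKR1C1 and AKR1C2 were lower in the subline, and AKR1C3 lay below the dim limit on all 4 arrays. AKR1C1 was 3.89-fold lower with 204151_x_at (log2 difference -1.96, SE 0.82) and 1.90-fold lower with 216594_x_at (-0.93, SE 0.674). AKR1C2 was 3.24-fold lower with 209699_x_at (-1.69, SE 0.733) and 3.93-fold lower with 211653_x_at (-1.98, SE 0.863). The standard errors come from a spread shared by all 6 groups and so carry the gap between the Detroit-labelled duplicates, whereas the SD between Fadu duplicates was at most 0.081 for both AKR1C1 probe sets and at most 0.154 for AKR1C2 with 209699_x_at. With 211653_x_at it was 0.037 in the parent and 0.800 in the subline. In the fit with only the arrays compared, which uses the spread of the Fadu arrays alone, limma also called 0 of the 6 tested member probe sets. AKR1B10 had a log2 difference of -0.44 (SE 0.314) and AKR1C3 of -0.17 (SE 0.322), around or under the dim limit. In 5 of the 6 tested member probe sets both subline arrays lay below both parent arrays, against 17.0% of all probe sets. Among the 5 are the 4 bright probe sets of AKR1C1 and AKR1C2, which varied together and are not separate observations. Limma called 0 of the 6, against 0.0198% of all probe sets. At an unadjusted p under 0.05 there were 3 of the 6, against 1.75% of all probe sets, and nothing is read from these counts because the members were chosen with the values known. When any single array was left out the AKR1C1 difference stayed between -1.99 and -1.93 with 204151_x_at and between -0.99 and -0.87 with 216594_x_at. That of AKR1C2 stayed between -1.80 and -1.59 with 209699_x_at and between -2.54 and -1.41 with 211653_x_at.

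In the OECM1 comparison the same probe sets were higher in the subline. AKR1C1 was 2.75-fold higher with 204151_x_at (log2 difference 1.46, SE 0.82) and 2.06-fold higher with 216594_x_at (1.05, SE 0.674). AKR1C2 was 2.76-fold higher with 209699_x_at (1.46, SE 0.733) and 2.23-fold higher with 211653_x_at (1.16, SE 0.863). AKR1C3 differed by 0.63 (SE 0.322), a value that was 1.03 without OECM1 subline replicate 1 and 0.23 without replicate 2, and AKR1B10 by 0.19 (SE 0.314) with overlapping arrays. In 5 of the 6 tested member probe sets both subline arrays lay above both parent arrays, against 12.7% of all probe sets. Among the 5 are the 4 bright probe sets of AKR1C1 and AKR1C2, which varied together and are not separate observations. Limma called 0 of the 6, against 0.00661% of all probe sets, and at an unadjusted p under 0.05 there were 0 of the 6, against 3.29%. Nothing is read from these counts because the members were chosen with the values known. The ACTB control differences were 0.87 and 0.04 in the OECM1 parent and 0.06 and 0.63 in its subline.

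**Figure D2:**
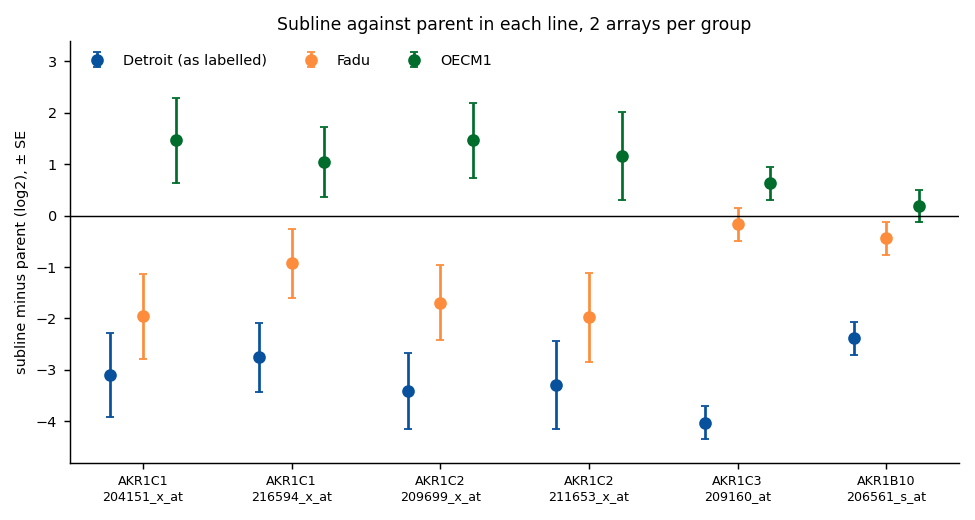
Invasion subline minus parent on the log2 scale (y axis) for the 6 tested member probe sets (x axis) in the 3 lines, as limma estimates with their standard errors, 2 arrays per group. AKR1C1 and AKR1C2 lie below 0 in Detroit as labelled and in Fadu (-0.93 to -3.41) and above 0 in OECM1 (1.05 to 1.46), while AKR1C3 and AKR1B10 are far from 0 only in Detroit.

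How far the paralogs share signal was read from the probe sets themselves. The suffix _x_at marks probes that also match other transcripts, and all 4 bright AKR1C1 and AKR1C2 probe sets carry it. Over the 12 arrays their pairwise Pearson correlations were 0.978 to 0.996, and the SD of the difference within a pair was 0.175 to 0.585, against an SD of 1.52 to 1.99 for the single probe sets. AKR1C1 and AKR1C2 cannot be told apart with these probe sets. AKR1C3 was also high in the Detroit parent, and how far these probe sets read its transcript there was not tested. AKR1B15, the next coding gene after AKR1B10, had no probe set carrying its name alone, so signal shared with it was not examined. AKR1C3 correlated with the 4 at 0.854 to 0.903 over all arrays and at 0.525 to 0.593 over the 10 arrays outside the Detroit parent. For AKR1B10 these values were 0.813 to 0.883 and 0.288 to 0.390. Each of these 2 genes lay above the dim limit on only 3 of the 12 arrays, both Detroit parent arrays among them. Correlations over the other 10 arrays therefore rest on values near the floor and cannot show whether signal is shared. On Detroit invasion subline replicate 2 AKR1C3 stayed at 3.81 while AKR1C2 stood at 8.30 and 8.83, so the AKR1C3 probe set was dim on an array where the other paralogs were bright. AKR1C4, the liver member of the cluster, lay between 3.23 and 3.71 on all arrays. The arrays share groups, so these correlations describe the 12 arrays and are not tested.

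**Figure D3:**
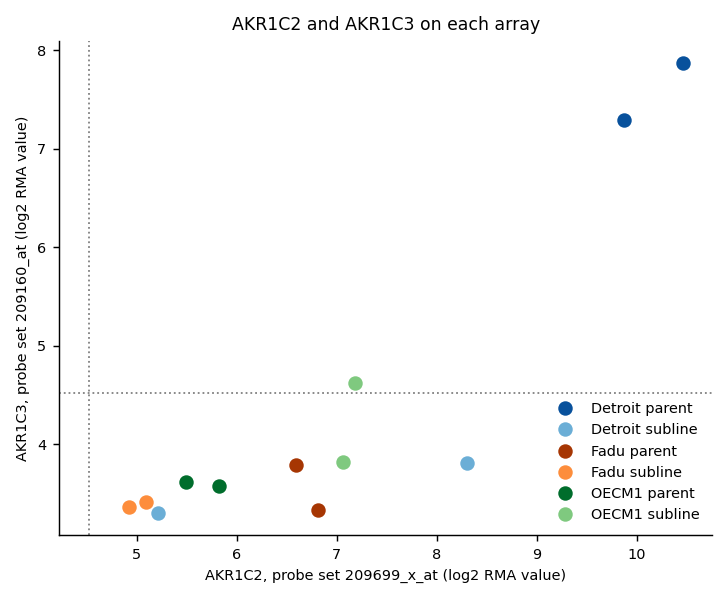
AKR1C2 (x axis, probe set 209699_x_at) against AKR1C3 (y axis, probe set 209160_at) in log2 RMA values, 1 point per array, with the dim limit as dotted lines. AKR1C2 spans 4.92 to 8.30 outside the Detroit parent while AKR1C3 stays between 3.30 and 4.62, and only the 2 Detroit parent arrays are high for both.

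The genes most like the members differed between AKR1C1 and AKR1C3. Among 8988 other genes, those with the highest Pearson correlation to AKR1C3 over the 12 arrays were CXCL6 (0.973), CD24 (0.968), COL5A2 (0.966), the matrilysin gene MMP7 (0.964) and CEACAM6 (0.963). For AKR1B10 they were the serine protease gene TMPRSS4 (0.975), CEACAM6 (0.963), SEPTIN9 (0.962), PGCKA1 (0.961) and S100A9 (0.956). Over the 10 arrays outside the Detroit parent CXCL6, COL5A2, MMP7 and CEACAM6 correlated with AKR1C3 at 0.079, 0.048, 0.079 and 0.181, and CD24 at 0.683. With AKR1B10 over those arrays SEPTIN9 correlated at 0.736, S100A9 at 0.707, TMPRSS4 at 0.623, PGCKA1 at 0.403 and CEACAM6 at 0.219. By rank among the 8988 genes CD24 was 187 for AKR1C3, and SEPTIN9, S100A9 and TMPRSS4 were 17, 27 and 77 for AKR1B10. Both members lay near the floor on those 10 arrays, so these correlations rest largely on dim values. For AKR1C1, added after the values were seen, the closest were ASS1, which makes argininosuccinate (0.943), PLLP (0.922), the annexin gene ANXA4 (0.916), BAMBI (0.897) and the caspase gene CASP4 (0.894). Over the other 10 arrays ANXA4 correlated at 0.922, the highest of all 8988 genes, and ASS1 at 0.856. ANXA4 averaged 7.78 in Detroit parent cells, 6.71 in those of Fadu, 6.35 in those of OECM1 and 6.77 in the OECM1 subline.

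Of 30 listed NRF2 target genes other than the members 25 were tested. The list was chosen with earlier results of these data known, so nothing is read from the share of it called in any comparison. In the Detroit comparison 3 fell (12%, against 3.02% of all probe sets called), 0 rose and 22 did not pass, with a median log2 difference of -0.11 against -0.01 over all probe sets. GPX2, a glutathione peroxidase of epithelia, fell 4.13-fold (adjusted p = 0.00671), ALDH3A1, an aldehyde dehydrogenase, 3.92-fold (adjusted p = 0.0130) and GSR, glutathione reductase, 3.09-fold (adjusted p = 0.0142, limma). HMOX1 and GCLM lay 2.97 and 2.05 higher and did not pass. The label of these subline arrays is in doubt. In them and in the Fadu parent GSR averaged 5.84 and 5.82, ALDH3A1 6.97 and 7.91 and GPX2 6.01 and 8.45. Without Detroit parent replicate 1 the ALDH3A1 and GSR calls ended (adjusted p = 0.104 and 0.110), the one for ALDH3A1 was also lost without replicate 2 of the Detroit-labelled subline (adjusted p = 0.0706), and with the replicate number as a block GPX2 and GSR did not pass (adjusted p = 0.0574 and 0.0807). With only the arrays compared none of the 3 passed (adjusted p = 0.144 for GPX2, 0.208 for ALDH3A1 and 0.191 for GSR), and with array weights GSR did not (0.0523).

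In the Fadu comparison 1 of the 25 fell (4.0%, against 0.0198%), 0 rose and 24 did not pass. As before, nothing is read from that share. The median was -0.38 against -0.01, and 19 of the 25 differences were below 0. The gene that fell was GPX2, at 5.44 ± 0.209 in the subline and 8.45 ± 0.579 in the parent (log2 difference -3.01, SE 0.321, adjusted p = 0.0187, limma). Its call ended without either Fadu subline array (adjusted p = 0.181 and 0.201), Fadu parent replicate 2 (0.167), Detroit parent replicate 1 (0.0514) or either OECM1 subline array (0.0732 and 0.0727), with the replicate block (adjusted p = 0.423) and with only the arrays compared (0.140). ALDH3A1, GCLC, EPHX1 and SLC7A11 differed by -1.88, -1.39, -1.37 and -1.23 and did not pass. In the OECM1 comparison 0 of 25 passed by limma, 18 differences lay above 0 and the median was 0.24 against 0.00. None of the 9 tested regulators, which include NFE2L2 and its repressor KEAP1, passed in any of the 3 comparisons. In Detroit, Fadu and OECM1 NFE2L2 differed by -0.86, -0.35 and -0.12 and KEAP1 by -0.88, -0.28 and -0.22. MAFF, another of the 9, differed by 3.12, -0.21 and 1.22. Differences above 0 were found for 5, 3 and 6 of the 9, and the list medians were 0.32, -0.13 and 0.40. Of the 4 tested other aldo-keto reductases (AKR7A2, AKR7A3, KCNAB2 and KCNAB3) 0 passed in each comparison.

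**Figure D4:**
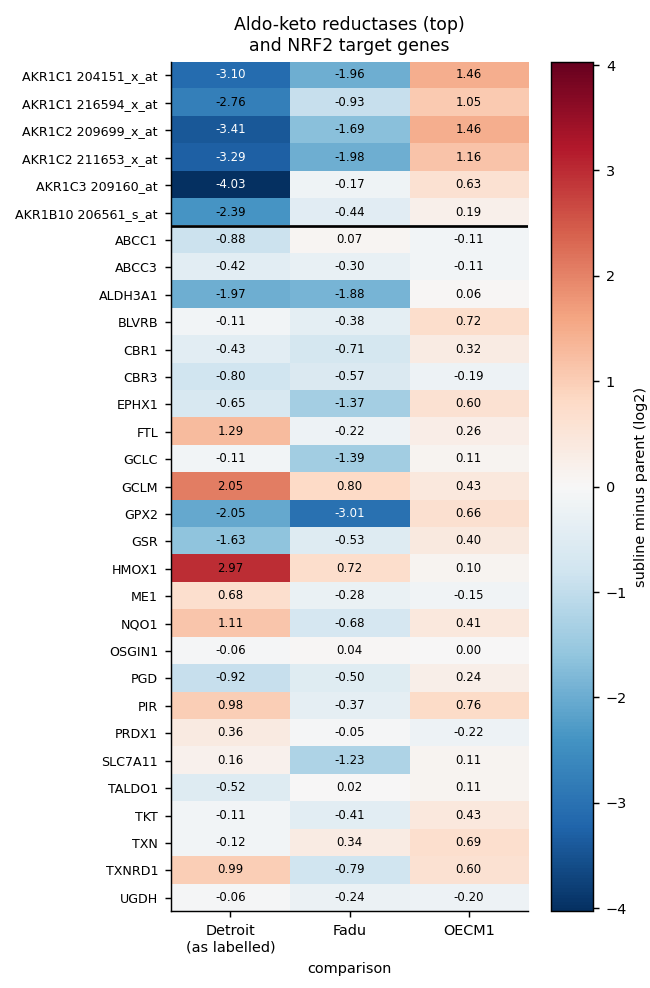
Invasion subline minus parent on the log2 scale (colour and printed value) in the Detroit, Fadu and OECM1 comparisons (columns) for the 6 tested member probe sets above the line and the 25 tested NRF2 target genes below it. GPX2 and ALDH3A1 lie below 0 with AKR1C1 and AKR1C2 in Detroit as labelled and in Fadu, whereas HMOX1 and GCLM lie above 0 in both.

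Among the parents the same F test called 6 of the 25 NRF2 targets (24.0%, against 4.77% of all probe sets). Nothing is read from this share, because the list was chosen with earlier results of these data known. ALDH3A1 averaged 8.94 ± 0.315 in the Detroit parent, 7.91 ± 0.297 in that of Fadu and 4.90 ± 0.533 in that of OECM1 (adjusted p = 0.000238, limma), the order seen for AKR1C1 and AKR1C2. GPX2 averaged 8.06 ± 0.193, 8.45 ± 0.579 and 5.08 ± 0.100 (adjusted p = 0.000294), and GSR 7.47 ± 0.200, 5.82 ± 0.493 and 5.54 ± 0.212 (adjusted p = 0.00679). NQO1, a quinone reductase, was highest in the Fadu parent instead, at 10.41 ± 0.161 against 9.46 ± 0.181 in Detroit and 8.37 ± 0.320 in OECM1 (adjusted p = 0.00784).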

How the data were processed

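Total RNA of 12 samples was hybridised to 12 Affymetrix arrays, 1 per sample. The deposited log2 values for 22283 probe sets were made by the authors with RMA (background correction, normalization to 1 distribution, summary per probe set), with Partek 7 named beside it, per the submitters' processing notes. The array annotation named 19065 probe sets with 1 symbol, 1043 with several and left 2107 unnamed. The 68 control probe sets were set aside. Probe sets with at least 2 arrays above the 40th percentile of all values (4.52) were tested, 15124 in all, and 0 value columns were unused. AKR1C1 probe set 217626_at did not pass, and its differences come from the fit without a filter.

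A mean per group was fitted with limma 3.58.1 in R 4.3.3 (intensity trend, 1 spread for 6 groups), and p-values were adjusted by Benjamini-Hochberg over all probe sets, with a threshold of 0.05. The fit was tested on simulated data. List genes were represented by their brightest single-symbol probe set. At most 4 called genes per list and comparison, by smallest p, and the 5 genes most correlated with AKR1C3 and AKR1B10 were named. Promoters were aligned globally with Biopython 1.88 (match 1, mismatch -1, gap opening -2, extension -0.5). Members and lists were chosen with earlier results of these data known. Protein sequences were not used here. Arrays have no read depth, and 2 arrays per group limit the precision. Between same-numbered arrays of a line, deviations from the group means correlated at -0.168, -0.409 and -0.405, so arrays of the same number did not vary together. The negative values mean that deviations tended to match between arrays of opposite number. Whether those arrays shared a batch was not tested.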

Additional observations from a re-analysis of the deposited data

Results flagged for a closer look

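For several members and list genes every subline array differed one way from its parent arrays in one line and the opposite way in another. The differences between lines were not tested, and groups of 2 arrays are too small for a check of single outlying arrays. For AKR1C1 the Detroit effect minus the OECM1 effect was -4.56 with 204151_x_at and -3.80 with 216594_x_at, and the Fadu effect minus the OECM1 effect was -3.42 and -1.97 on the log2 scale. For AKR1C2 these differences were -4.87 with 209699_x_at and -4.45 with 211653_x_at against Detroit, and -3.16 and -3.13 against Fadu. For AKR1C3 the Detroit effect minus the OECM1 effect was -4.66, from effects of -4.03 and 0.63. Every Detroit value rests on arrays whose label is in doubt.

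Among list genes, GPX2 showed the same opposition (-2.70 for Detroit minus OECM1 and -3.67 for Fadu minus OECM1), as did GSR (-2.03 and -0.93). NQO1 was opposite between Detroit and Fadu (1.78) and between Fadu and OECM1 (-1.08). DCXR, a carbonyl and xylulose reductase, gave -1.97 for Fadu minus OECM1, and PLA2G4A, the cytosolic phospholipase that releases arachidonic acid, -3.92 for Detroit minus OECM1.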

How the results depend on the processing

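Directions of the members held in all alternatives run for AKR1C1 and AKR1C2 in the 3 lines, and for AKR1C3 and AKR1B10 in Detroit. Exceptions elsewhere were AKR1C3 in Fadu, which reached 0.06, and AKR1B10 in OECM1, which reached -0.15, both below the dim limit. Of 514 alternative values of the members, 22 moved by more than the spread between duplicates, all on leaving out 1 array, and of 198 values of called list genes 40 lost the call and 0 reversed. Counts of called probe sets depended more on the setting. The Detroit count of 457 was 295 with 1 probe set per gene, 262 with array weights, 44 with only the arrays compared and 183 with the replicate block. Leaving out replicate 1 of the Detroit-labelled subline gave 1366, leaving out its replicate 2 gave 304, and the count was 174 without Detroit parent replicate 1, so that single arrays moved it from 174 to 1366. The Fadu count of 3 was 5 with array weights, 1 with only the arrays compared, 0 with the replicate block and 0 to 4 on leaving out an array. The OECM1 count of 1 was 5 with no filter, and 0 with 1 probe set per gene, no trend, array weights, only the arrays compared, the replicate block or quantile normalization, and 0 to 6 on leaving out an array. The Detroit-labelled subline against the Fadu parent gave 5 in place of 0 with the ACTB difference as a covariate, and 0 to 306 on leaving out an array, the highest without its replicate 1. The count of 722 for the parents was 476 with 1 probe set per gene and 319 to 1113 on leaving out an array, outside 1.5-fold without either Detroit invasion subline array (1113 and 1109), Detroit parent replicate 1 (449), either Fadu parent array (319 and 431) or OECM1 parent replicate 1 (458). Crossing the replicate numbers between subline and parent, an alternative chosen after the data were seen, gave 749, 2 and 0 calls for Detroit, Fadu and OECM1.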

Other observations

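Lists of steroid, prostaglandin, and carbonyl and retinoid genes each held 1 or 2 called genes in the Detroit comparison. Each share was above the 3.02% of all probe sets called there, while 0 of 5 tested polyol and fructose genes passed. Nothing is read from these shares, because the lists were chosen with earlier results of these data known. Of 16 tested genes of the steroid list 2 rose in the Detroit comparison and 0 fell. HSD17B1, which makes estradiol from estrone, rose 4.55-fold (adjusted p = 0.00855, limma), a call that ended without Detroit parent replicate 1 (adjusted p = 0.0597) or 2 (0.0516). NR3C1, the glucocorticoid receptor gene, rose 3.36-fold (adjusted p = 0.0410), and that call ended without any of 9 single arrays, among them Detroit invasion subline replicate 2 (adjusted p = 0.187). Of 10 tested prostaglandin genes PLA2G4A fell 8.56-fold (adjusted p = 0.00187), from 6.23 ± 0.516 in the Detroit parent to 3.13 ± 0.429 in the Detroit-labelled subline, with the Fadu parent at 3.26 ± 0.289. Of 18 tested carbonyl and retinoid genes 2 fell, ALDH7A1 at 5.02-fold (adjusted p = 0.00324) and the retinol dehydrogenase gene DHRS9 at 6.34-fold (adjusted p = 0.0290). With only the arrays compared none of these calls held (adjusted p = 0.0561 for PLA2G4A, 0.0857 for ALDH7A1, 0.112 for HSD17B1, 0.264 for NR3C1 and 0.257 for DHRS9). The Detroit-labelled subline, whose label is in doubt, averaged 6.54 for HSD17B1, 8.73 for NR3C1, 4.48 for ALDH7A1 and 4.21 for DHRS9. In that order the Fadu parent averaged 5.74, 8.47, 4.10 and 3.92, and the Detroit parent 4.36, 6.98, 6.81 and 6.88. The part of selection for invasion in these differences was not tested. The DHRS9 call ended without Detroit parent replicate 1 (log2 difference -1.59, adjusted p = 0.127), Detroit invasion subline replicate 2 (0.114) or either Fadu subline array (0.0504 for both). In Fadu and OECM1 0 genes of these lists, or of 5 tested polyol and fructose genes, passed by limma.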
